A study of Sus scrofa with 50 samples.

Results

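The genes described here are 8 regulators of lipolysis, the breakdown of stored fat in adipocytes: the beta-adrenergic receptors ADRB1 and ADRB3, the inhibitory receptors ADORA1 (adenosine receptor A1, entry AA1R), PTGER3 (prostaglandin E2 receptor EP3, entry PE2R3) and FFAR4 (free fatty acid receptor 4), the phosphodiesterase PDE3B, and the pair KLB (beta-klotho, entry KLOTB) and FGFR1 that receives fibroblast growth factor 21. They were chosen by name. A gene is a Swiss-Prot protein entry, and its level is the summed TPM (a share of the library scaled per transcript length) of every assembled transcript whose best protein match, at an E value of at most 1e-10, is that entry. The 8 genes came from 14 of 32158 matched transcripts and are 8 of 14415 genes in all.

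RNA was sequenced from backfat, brain, loin, lymph and tenderloin of Korean minipigs (Sus scrofa), 5 animals of the ET type (S0235, S0242, S0276, S0309, S0326) and 5 of the L type (S0349, S0355, S0377, S0384, S0385), which gave 50 libraries in 10 groups. The sources used here do not spell out ET and L, name no treatment, age or sex, and do not say which part of the brain or which lymph tissue was taken. The comparison of interest is ET against L within a tissue, with the animal as the replicate.

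Catecholamines start lipolysis through beta-adrenergic receptors, which raise cyclic AMP, and protein kinase A then acts on perilipin 1 and hormone-sensitive lipase at the lipid droplet. Adenosine, prostaglandin E2 and long-chain fatty acids oppose this through receptors that lower cyclic AMP, and insulin opposes it mainly by activating PDE3B, which degrades cyclic AMP. Fibroblast growth factor 21, a hormone of the liver, acts on cells that hold beta-klotho together with an FGF receptor, and adipocytes are a main target.

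A rule that names them left out 5 libraries: backfat, loin and brain of S0355, and lymph and brain of S0235. In the backfat, loin and lymph libraries the defining markers went against the labelled tissue. The brain libraries of S0235 and S0355 were left out as unlike the other brain libraries, not as unlike brain. Their summed myelin genes were at 37706 and 53542 TPM. The backfat library of S0355 had adiponectin (ADIPOQ) at 3.33 TPM and the muscle kinase CKM at 23749 TPM, and its loin library had ADIPOQ at 1139 TPM and CKM at 0.638 TPM. The 45 other libraries comprised 5 ET and 4 L in backfat and in loin, 5 and 5 in tenderloin, 4 and 5 in lymph, and 4 and 4 in brain. The 8 brain libraries kept had summed TPM of 3 pituitary hormone genes of 20971 to 82994 and of 2 myelin genes of 36.4 to 108, so these libraries were rich in pituitary hormone transcripts and poor in myelin transcripts under the label brain. TPM carries no depth, so the reads behind each value are unknown and precision comes from the spread between animals. Median-ratio scaling moved the median type difference of all genes in backfat from 0.29 to 0.02 (log2), and in loin from -0.23 to 0.01.

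On the pig assembly Sscrofa11.1, RefSeq places ADORA1 on chromosome 9 (113835279 to 113875899), KLB on chromosome 8 (30653434 to 30696123), ADRB1 on chromosome 14 (124400330 to 124401739), PDE3B on chromosome 2 (44416934 to 44614075) and PTGER3 on chromosome 6 (141958955 to 142160437). FGFR1 (48053895 to 48106634) and ADRB3 (48468803 to 48478370) lie near each other on chromosome 15. All 7 are protein-coding genes, and no locus is given here for FFAR4. The matches differed in quality. ADRB1 and ADRB3 matched the pig proteins at 99.1% and 99.5% identity with 7 predicted membrane helices each, as for a receptor of this family, while the single PTGER3 transcript of 6503 bases matched the pig EP3 receptor over only 264 bases at 74.2% identity. PTGER3 values are therefore less certain than the others.

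Backfat of the ET type held more transcript of 5 of the 7 genes that could be tested than backfat of the L type: ADORA1, KLB, FFAR4, PDE3B and ADRB1. In limma's test on log2(TPM + 1), with p adjusted by Benjamini-Hochberg over 12111 genes, 7.53% of genes were higher in ET and 1.04% lower (912 and 126 genes, in place of which median-ratio scaling gave 499 and 262). Every ET library lay above every L library for the same 5 genes, an order that 11.9% of the genes tested showed. The smallest of the 5 differences was that of ADRB1, and the largest that of ADORA1. The plot of backfat libraries shows each value.

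**Figure D1:**
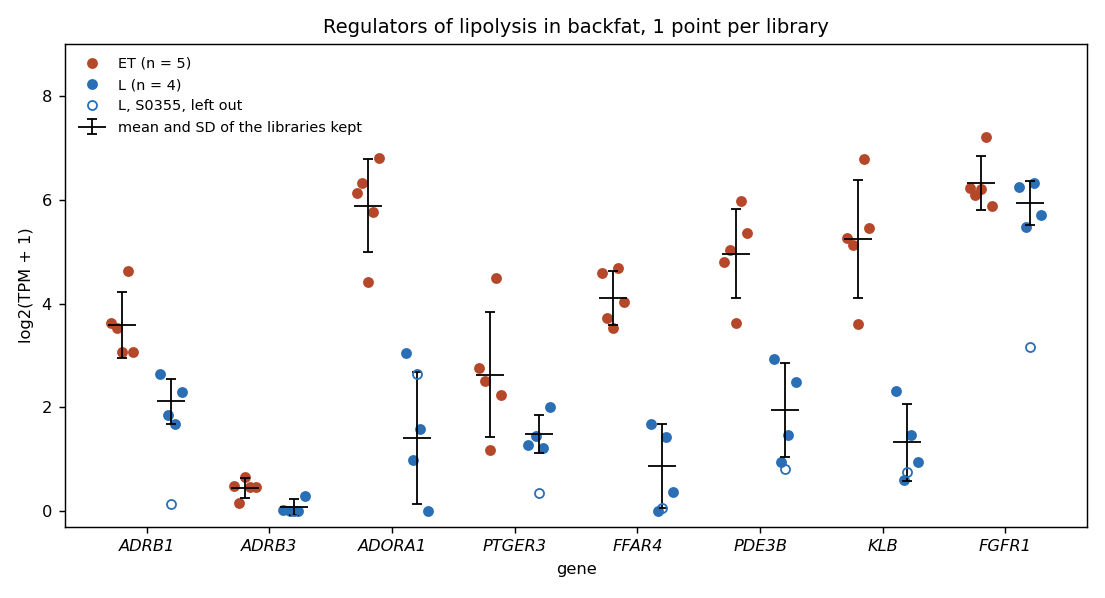
Level of the 8 regulators in each backfat library as log2(TPM + 1), ET in red and L in blue, with the mean and SD of the libraries kept; the open circle is the left-out library of S0355. For ADRB1, ADORA1, FFAR4, PDE3B and KLB the 5 ET points all lie above the 4 filled L points, and for FGFR1, PTGER3 and ADRB3 the points overlap.

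Of the stimulatory receptors, ADRB1 was at 11.3, 10.54, 7.40, 23.8 and 7.36 TPM in the backfat of the ET type (S0235, S0242, S0276, S0309, S0326 in this order), and at 5.23, 2.63, 2.21 and 3.94 TPM in that of the L type (S0349, S0377, S0384, S0385). The groups did not overlap, but the lowest ET values lay close to the highest L value. The difference was 1.46 on the log2(TPM + 1) scale (SE 0.36, limma adjusted p = 0.0306), and it no longer passed the test when S0235, S0242, S0326, S0377, S0384 or S0385 was left out (adjusted p of 0.0508 to 0.0995). ADRB3, the beta receptor that predominates in rodent fat cells, was nearly absent from pig backfat. It was at 0.401, 0.110, 0.587, 0.370 and 0.386 TPM in ET and at 0.0194, 0, 0 and 0.231 TPM in L, in the same order of animals. Its mean was under the minimum of 1 TPM, so it was not tested, and ADRB1 stood at 12.1 ± 6.77 TPM (SD, n = 5) in ET backfat against 0.371 ± 0.17 for ADRB3.

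Among the inhibitory receptors, ADORA1 was at 69.4, 78.9, 20.4, 53.2 and 111 TPM in ET backfat and at 7.23, 0.985, 1.99 and 0 TPM in L backfat. The lowest ET library, S0276, was still well above the highest L library, S0349. The log2 difference was 4.49 (SE 0.60, limma adjusted p = 0.00373), a value that understates the change where L is near the pseudocount of 1. FFAR4, which senses long-chain fatty acids, was at 22.97, 12.1, 10.5, 24.8 and 15.2 TPM in ET and at 2.19, 0, 1.70 and 0.295 TPM in L. The lowest ET library was several times the highest L library, and the log2 difference was 3.24 (SE 0.40, adjusted p = 0.00373, limma). PTGER3 was at 5.74, 4.68, 1.26, 21.4 and 3.71 TPM in ET and at 1.42, 1.73, 1.31 and 3.02 TPM in L. S0276 fell below every L library and S0309 lay far above the rest, so the groups overlapped, and the difference of 1.15 (95% interval -0.03 to 2.32, limma adjusted p = 0.199) did not pass the test.

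PDE3B, the enzyme through which insulin lowers cyclic AMP, was at 26.9, 31.7, 11.4, 61.8 and 40.1 TPM in ET backfat and at 6.60, 0.931, 1.77 and 4.58 TPM in L backfat. No ET library came within the L range. The log2 difference was 3.004 (SE 0.50, limma adjusted p = 0.00793), and it was 1.94 (adjusted p = 0.112) with 1 transcript per gene, the one with the highest mean over all 50 libraries. For PDE3B this was the transcript of an L heart assembly (13.2 TPM in ET and 2.21 in L backfat on average), while the transcript of an ET lymph assembly, which had the higher mean over the 45 libraries (5.72 against 5.37 TPM), stood at 19.0 and 0.681 TPM.

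The 2 parts of the FGF21 receptor behaved unlike each other. KLB, which gives the hormone its binding site, was at 37.6, 33.9, 11.13, 109 and 42.7 TPM in ET and at 3.95, 0.5263, 1.76 and 0.924 TPM in L. The log2 difference was 3.91 (SE 0.55, limma adjusted p = 0.00408), with no overlap between the groups. FGFR1, the receptor kinase of the pair, was at 73.9, 66.98, 73.2, 147 and 58.1 TPM in ET and at 75.04, 43.3, 79.4 and 51.3 TPM in L. Its ranges overlapped, although L animals S0377 and S0385 lay below every ET library and ET animal S0309 above every L library. Its difference of 0.38 (95% interval -0.28 to 1.05, adjusted p = 0.448, limma) did not pass the test.

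Within the groups some animals often held the highest or lowest value. S0309 was the highest ET library for 6 of the 8 genes and S0276 the lowest for 5, while S0349 was the highest L library for 5. How often the same holds over all genes was not counted. The mean of the adipocyte marker genes was also highest in S0309 and lowest in S0276 among ET, and highest in S0349 among the L libraries kept. With the muscle-marked backfat library of S0355 added to L, the same 5 differences passed (ADORA1 4.24, KLB 4.03, FFAR4 3.40, PDE3B 3.23 and ADRB1 1.86, limma adjusted p of 0.00569 to 0.048). That library lay within the L range for ADORA1 (5.27 TPM), KLB (0.685) and FFAR4 (0.0405). It lay below the L range for PDE3B (0.768) and ADRB1 (0.103), so passing with it added is no support.

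Adipocyte markers moved with these differences. The summed TPM of 9 adipocyte markers was 8592 to 19465 in ET backfat and 580 to 7564 in L backfat, and 8 of the 9 were higher in ET in limma's test. ADIPOQ was at 3375, 2590, 1076, 6980 and 1706 TPM in ET and at 268, 182, 229 and 539 TPM in L. PLIN1, which coats the lipid droplet, was at 1098, 813, 362, 1011 and 794 TPM in ET and at 127, 12.7, 31.0 and 52.5 TPM in L. S0276 was the lowest ET library and S0309 the highest or near the highest for both. In the same libraries 3 of 5 fibroblast markers, 2 of 3 macrophage markers, 3 of 3 T-cell markers and 2 of 3 blood genes tested were higher in ET, 1 of 2 B-cell markers tested was higher and the other lower, and none of 8 muscle markers or 4 endothelial markers passed. With median-ratio scaling CSF1R and CD2 did not pass, which left 1 of 3 macrophage and 2 of 3 T-cell markers. The summed fibroblast markers were 6713 to 23990 TPM in ET and 975 to 3657 in L. In whole tissue, fewer adipocytes and less RNA per adipocyte cannot be told apart, and the part that these markers have in the differences above was not tested.

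When each library was set against its own mean of the 9 adipocyte markers, the differences in ADORA1, KLB, FFAR4 and PDE3B were no longer past the threshold. ADORA1 was 1.11 higher in ET (95% interval -0.03 to 2.26, limma adjusted p = 0.058), KLB 0.54 (-0.61 to 1.70) and FFAR4 -0.13 (-1.30 to 1.04), and PDE3B -0.37 (-1.52 to 0.78). These intervals include changes of more than 2-fold for each of the 4 genes. ADRB1 (-1.91), PTGER3 (-2.23) and FGFR1 (-2.99) were lower relative to the markers (limma adjusted p of 0.0014, 0.000239 and 5.27e-07). On this scale 98.0% of all genes were lower in ET, with a median of -3.09, so being lower on this scale is common to nearly every gene, and FGFR1 lay near that median. ADORA1 passed the test with a pseudocount of 0.1 (2.25, adjusted p = 0.00041), with median-ratio scaling (1.18, 0.0461), against ADIPOQ alone (1.29, 0.0394), and when S0276, S0309, S0349 or S0377 was left out (1.21, 1.28, 1.34 and 1.34). PDE3B was called lower on this scale with 1 transcript per gene (-1.48, adjusted p = 0.0219). The plot of type differences sets both scales side by side.

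**Figure D2:**
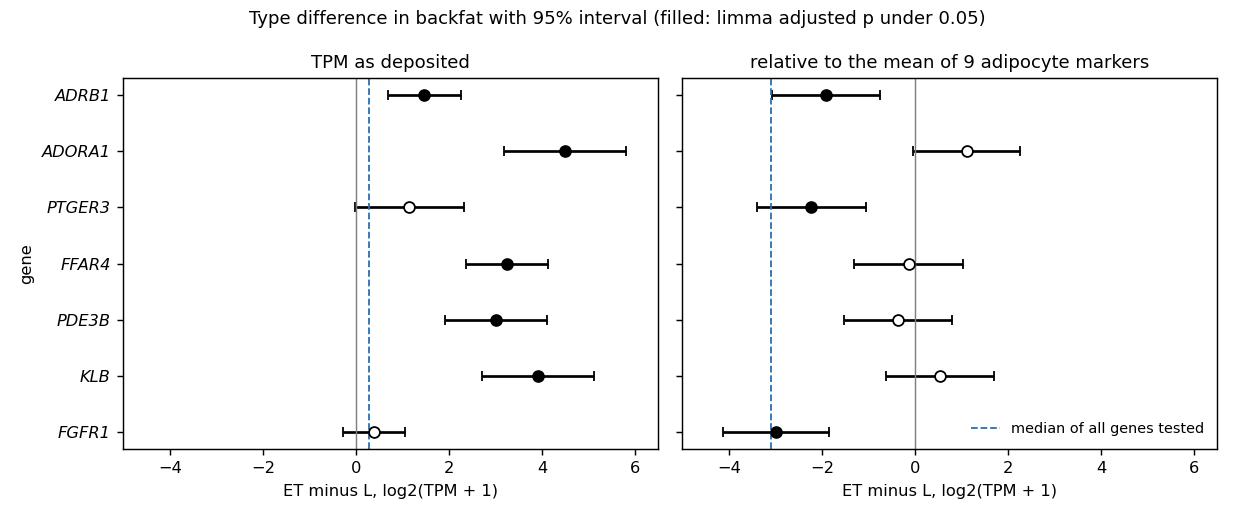
ET minus L in backfat on the log2(TPM + 1) scale with the 95% interval for the 7 genes tested, from TPM as deposited (left) and relative to the mean of 9 adipocyte markers (right); filled points had a limma adjusted p under 0.05 and the dashed line is the median of all genes tested, 0.29 on the left and -3.09 on the right. ADORA1, FFAR4, PDE3B and KLB lie far to the right of the median in both panels, and FGFR1 lies close to it in both.

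The balance between receptor classes can be read within a library, where a change in the scale of TPM cancels. A change in the cell makeup of the tissue does not cancel in this way. The summed adipocyte markers also differed between the types in backfat (8592 to 19465 TPM in ET and 580 to 7564 in L). Their part in these ratios was not tested. The log2 ratio of the beta receptors (ADRB1 plus ADRB3) to the inhibitory receptors (ADORA1, PTGER3 and FFAR4) had a median of -3.06 in ET backfat (range -4.07 to -2.01) and of -0.55 in L backfat (range -1.18 to 0.33). All ET libraries thus had more inhibitory receptor transcript relative to beta receptor transcript than any L library. The log2 ratio of KLB to FGFR1 had a median of -0.97 in ET (range -2.72 to -0.43) and of -5.65 in L (range -6.36 to -4.25), again without overlap. Outside backfat the ET and L ranges of both ratios overlapped in each tissue. In lymph alone the first ratio was above 0 in every library (0.39 to 2.71), and the ratio of KLB to FGFR1 had its lowest medians in brain (-6.34 in ET and -7.24 in L). These ratios are a description, with no test.

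**Figure D3:**
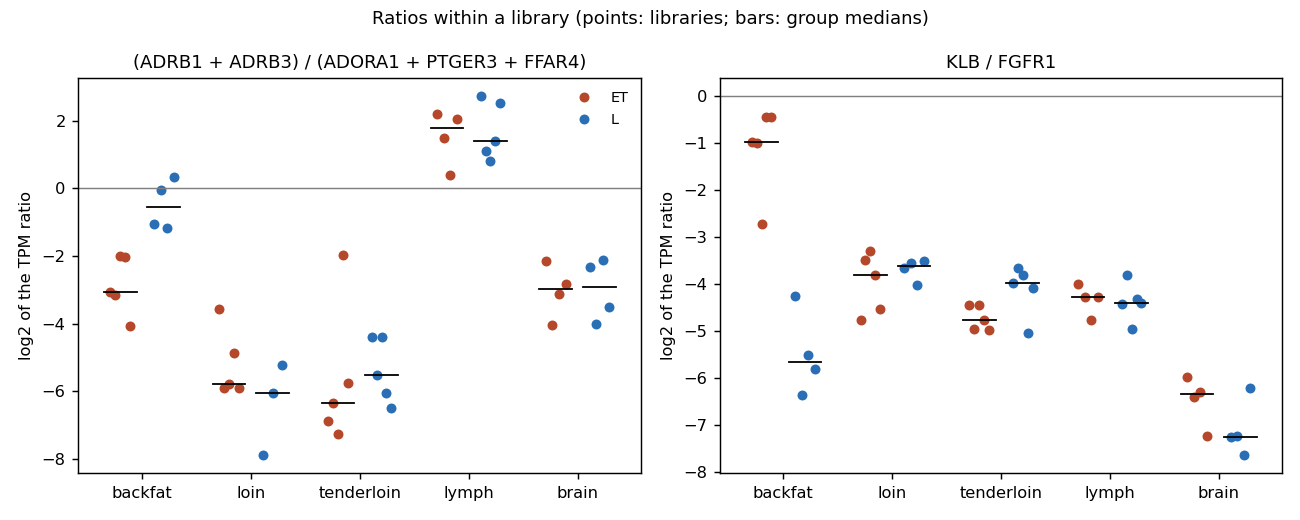
Log2 ratio of summed TPM within each library, by tissue and type, for beta receptors over inhibitory receptors (left) and KLB over FGFR1 (right); points are libraries and bars are group medians, and 1 L loin library with no beta receptor transcript has no left-hand value. In backfat, and in no other tissue, the ET and L points are fully apart in both panels.

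The neighbouring steps of the pathway were read from lists of genes that were matched to entries. Of the lipolysis machinery, 7 of 9 genes tested were higher in ET backfat and none lower (median log2 difference 3.52, against 0.29 for all genes), and 5 of 9 with median-ratio scaling, where MGLL and PNPLA2 did not pass. LIPE, the hormone-sensitive lipase, was at 870 ± 304 TPM in ET (SD, n = 5) and 53.8 ± 63.3 TPM in L (n = 4), a log2 difference of 4.54 (SE 0.58, limma adjusted p = 0.00373). PLIN1 (4.20), the droplet protein CIDEC (4.49) and the acyltransferase and lipase PNPLA3 (3.67) were the next by p. Relative to adipocyte markers ABHD5 (-2.27), the activator of adipose triglyceride lipase, the monoglyceride lipase MGLL (-1.51), adipose triglyceride lipase PNPLA2 (-1.55) and the fatty acid carrier FABP4 (-1.55) were lower, and LIPE and PLIN1 were not called. FABP4, PLIN1 and CIDEC are among the 9 adipocyte markers themselves, so on this scale they were set against a mean that holds them.

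Of 25 genes of the cyclic AMP and protein kinase A list that were tested, 4 were higher in ET backfat and none lower (median 0.23), beside 7.53% of all genes higher. They were PRKAR2B, the regulatory subunit of protein kinase A found in fat (2.73), the phosphodiesterase PDE8B (1.59), and the adenylyl cyclases ADCY6 (1.38) and ADCY5 (2.27). With median-ratio scaling PRKAR2B alone passed, 1 of 25, beside 499 of 12111 genes higher, a share close to that of all genes. Among 10 genes of the insulin arm, 2 were higher, the kinase AKT2 (2.32) and ABHD15 (2.77), a protein reported to act with PDE3B, and none lower. Of 14 other receptors of fat cells tested, the growth hormone receptor GHR was the only one that passed (1.98, limma adjusted p = 0.0261), and with median-ratio scaling ADORA2A, the A2A adenosine receptor, was also called, lower in ET (-0.95, adjusted p = 0.0405). None of the 7 genes tested of the FGF21 arm other than KLB and FGFR1 passed, and their median was close to that of all genes, both 0.29 after rounding. Relative to adipocyte markers 14 of 14 other receptors, 23 of 25 cyclic AMP genes, 8 of 10 insulin genes and 7 of 7 FGF21 genes were lower, beside 98.0% of all genes.

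In the other tissues no member passed the test of ET against L. In loin, where 6.17% of genes were higher in ET and 25.2% lower (1262 higher and 1204 lower with median-ratio scaling, in place of 652 and 2665), ADORA1 (0.01, 95% interval -0.98 to 0.99) and FGFR1 (0.44, -0.09 to 0.97) were tested. FGFR1 was at 12.2, 8.84, 5.71, 9.16 and 10.2 TPM in ET loin and at 3.80, 6.49, 7.10 and 9.07 TPM in L loin, and it passed with median-ratio scaling (0.68, limma adjusted p = 0.0397). In tenderloin, with 1.4% of genes higher and 0.23% lower (152 and 25 genes, or 94 and 34 with median-ratio scaling), PDE3B was at 1.57, 1.14, 1.53, 2.03 and 1.02 TPM in ET and at 0.666, 1.23, 0.699, 0.513 and 0.811 TPM in L. That difference of 0.46 (95% interval 0.11 to 0.81) had a limma adjusted p of 0.149, and PDE3B entered the test through its ET mean, since its L mean was under 1 TPM. ADORA1 (0.13, -0.61 to 0.87) and FGFR1 (0.42, -0.18 to 1.02) did not pass there either.

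In lymph 0.0% of genes were called in either direction by limma, with 525 of 11983 at an unadjusted p under 0.05, and PDE3B (0.28, 95% interval -0.26 to 0.83), FGFR1 (-0.36, -1.01 to 0.29) and ADRB3 (-0.55, -1.17 to 0.08) were tested. ADRB3 entered the test through its L mean, since its ET mean was under 1 TPM. In brain 0.0% were called as well, with 1079 of 13098 at an unadjusted p under 0.05, and the 5 members tested had differences of -0.71 for PDE3B, -0.54 for FFAR4, -0.49 for FGFR1, -0.38 for ADRB1 and 0.00 for ADORA1. The interval for FFAR4 in brain ran from -2.37 to 1.28, so a large difference in either direction would not have been seen. Pathway genes were called in the muscles. In loin the lipase PNPLA2 (-1.58), LIPE (-2.02), GHR (-1.58), the cyclases ADCY9 (-1.43) and ADCY2 (-0.48), the insulin receptor INSR (-1.45) and its substrate IRS2 (-1.73) were lower in ET, and the glycerol channel AQP7 (0.99), PDE8B (0.52), FGFR4 (0.89) and the feedback inhibitor SPRY2 (0.94) were higher. With median-ratio scaling ADCY2 was not called in loin, nor DUSP6 in tenderloin. In tenderloin PNPLA2 (-1.51) was lower and the feedback genes DUSP6 (0.83) and SPRY2 (1.004) were higher. PNPLA2 was thus called lower in ET in both muscles, while in backfat it stood at 627 ± 216 TPM in ET and 189 ± 120 TPM in L.

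Whether the type difference in backfat exceeded that in another tissue was tested as an interaction over the 45 libraries. ADORA1 (4.48 against loin, 4.36 against tenderloin, 4.62 against lymph and 4.49 against brain), KLB (3.85, 3.99, 4.01 and 3.86), FFAR4 (3.20, 3.16, 3.31 and 3.78), PDE3B (2.72, 2.54, 2.72 and 3.71) and ADRB1 (1.40, 1.46, 1.43 and 1.84) passed in limma against all 4 tissues. PTGER3 passed against loin (1.23, adjusted p = 0.0338) and tenderloin (1.496, 0.0159) but not against lymph (0.0647) or brain (0.0577). KLB and PTGER3 reached a mean of 1 TPM in backfat alone and so entered this fit through the tissue where ET was high, which limits what their calls can show. FFAR4 and ADRB1 averaged under 1 TPM in loin, tenderloin and lymph, PDE3B in loin and ADORA1 in lymph. On the log2(TPM + 1) scale a type difference at such levels is held small. These interactions therefore largely repeat the backfat difference and are no separate support for it. FGFR1 passed against none (-0.06, -0.03, 0.74 and 0.88). The share of all genes with a larger type difference in backfat was 24.3% against loin, 10.4% against tenderloin, 14.4% against lymph and 18.0% against brain. With median-ratio scaling the genes larger and smaller in backfat were 1091 and 1096 against loin in place of 3267 and 380, 942 and 729 against tenderloin in place of 1392 and 303, 871 and 624 against lymph in place of 1940 and 196, and 720 and 630 against brain in place of 2418 and 194. The 4 interactions share the backfat libraries, so their values are not independent of each other. ADRB1 did not pass against loin with a pseudocount of 0.1 (1.27, limma adjusted p = 0.0783), and with all 50 libraries ADRB1 did not pass against lymph (1.63, 0.147), nor ADRB1 (1.86, 0.132), FFAR4 (3.32, 0.0598) and PTGER3 (1.72, 0.0938) against tenderloin. With 1 transcript per gene PDE3B did not pass against tenderloin (1.90, 0.057), and the PTGER3 calls were lost against loin with a pseudocount of 0.1, with median-ratio scaling, and without S0235, S0242, S0349, S0377 or S0384 (adjusted p up to 0.0965), and against tenderloin without S0384 (0.0657). Without S0276 PTGER3 passed against lymph (1.56, 0.00394) and brain (1.86, 0.00081).

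Each member had its own order of tissues. Levels below are TPM over the libraries kept, and 7 members entered the fit of 13448 genes. The share of all genes higher and lower in backfat was 55.2% and 20.0% against loin, 57.9% and 17.5% against tenderloin, 28.1% and 44.3% against lymph, and 15.9% and 63.1% against brain. With median-ratio scaling these splits became more even, at 5265 and 4760 genes, 5153 and 4589, 4540 and 5027, and 4388 and 5233, and the calls of the members changed for FGFR1 against brain only.

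ADORA1 was at 66.5 ± 33.2 TPM in ET backfat (SD, n = 5), above L backfat at 2.55 ± 3.22 (n = 4). It stood at 3.40 ± 3.03 TPM in loin (n = 9), 1.66 ± 1.11 in tenderloin (n = 10), 1.68 ± 1.13 in brain (n = 8) and 0.217 ± 0.45 in lymph (n = 9). The brain value is that of the libraries rich in pituitary hormone transcripts. In the myelin-rich brain libraries left out, S0235 and S0355, ADORA1 was at 50.7 and 65.8 TPM, within the range of ET backfat. Loin and tenderloin (0.62, limma adjusted p = 0.186) and tenderloin and brain (-0.01, adjusted p = 0.973) did not differ beyond their spread, and lymph was below both. Between loin and tenderloin 23.2% of all genes were called, between lymph and brain 74.9%, between tenderloin and lymph 81.8% and between tenderloin and brain 87.8%. The L backfat libraries, at 0 to 7.23 TPM, overlapped the range of loin (1.21 to 10.4).

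KLB was at 0.296 to 1.25 TPM in every library outside backfat, and L backfat at 0.5263 to 3.95 overlapped that range. PTGER3 was at 0.0334 to 1.95 TPM outside backfat. ADRB1 followed backfat with brain at 3.54 ± 1.70 TPM (n = 8), lymph at 0.814 ± 0.292 (n = 9), and both muscles at 0.193 TPM or less. Backfat exceeded brain (0.77, limma adjusted p = 0.00019) and lymph was lower than brain (-1.24), while loin and tenderloin did not differ (0.00). L backfat (2.21 to 5.23 TPM) and brain (1.04 to 6.14) shared the same range of ADRB1.

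FFAR4 was highest in the libraries labelled brain. It was at 21.0, 34.1, 32.2 and 3.71 TPM in ET animals S0242, S0276, S0309 and S0326 and at 28.9, 50.8, 5.64 and 51.8 TPM in L animals S0349, S0377, S0384 and S0385. S0326 and S0384 stood well below the others, and neither type was higher throughout. Over both types backfat was lower than brain (-2.004 on the log2(TPM + 1) scale). ET backfat, at 10.5 to 24.8 TPM, lay within the brain range, while L backfat, at 0 to 2.19 TPM, lay below it. Lymph (0.379 ± 0.126 TPM), tenderloin (0.0897 ± 0.0705) and loin (0.0737 ± 0.0714) held little. The 2 brain libraries left out, which had myelin genes at 37706 and 53542 TPM, had FFAR4 at 0.0344 and 0.092 TPM.

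PDE3B was highest in lymph, with 34.8, 60.6, 34.3 and 41.2 TPM in ET animals S0242, S0276, S0309 and S0326 and 26.8, 46.5, 28.4, 50.5 and 25.1 TPM in the L type (S0349, S0355, S0377, S0384, S0385). The types overlapped there. Over both types backfat was lower than lymph (-1.81), and ET backfat at 11.4 to 61.8 TPM reached the level of lymph while L backfat at 0.931 to 6.60 TPM did not. Brain followed at 4.09 ± 2.44 TPM (n = 8), and tenderloin (1.12 ± 0.48, n = 10) and loin (0.623 ± 0.25, n = 9) did not differ beyond their spread (-0.38, adjusted p = 0.285). T-cell markers summed to 1092 to 2303 TPM in lymph and B-cell markers to 405 to 1252 TPM.

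ADRB3 reached 1 TPM in lymph alone, at 1.71, 0.489, 0.428 and 0.625 TPM in ET and at 1.61, 0.701, 2.74, 0.956 and 2.37 TPM in L, in the same order of animals as for PDE3B. It was listed at 0 in 8 of 9 loin, 9 of 10 tenderloin and 5 of 8 brain libraries. FGFR1 was present throughout, with brain at 101 ± 35.2 TPM and backfat at 74.2 ± 29.8 TPM above lymph (11.9 ± 5.21), tenderloin (10.7 ± 4.04) and loin (8.06 ± 2.54). Backfat was lower than brain in FGFR1 (-0.47, limma adjusted p = 0.0487), a call that did not hold with all libraries, a pseudocount of 0.1, no filter or 1 transcript per gene, nor without S0235, S0242, S0276, S0326, S0377 or S0384, and with median-ratio scaling the sign turned to 0.28. The plot by tissue shows all 8 genes on a common scale.

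**Figure D4:**
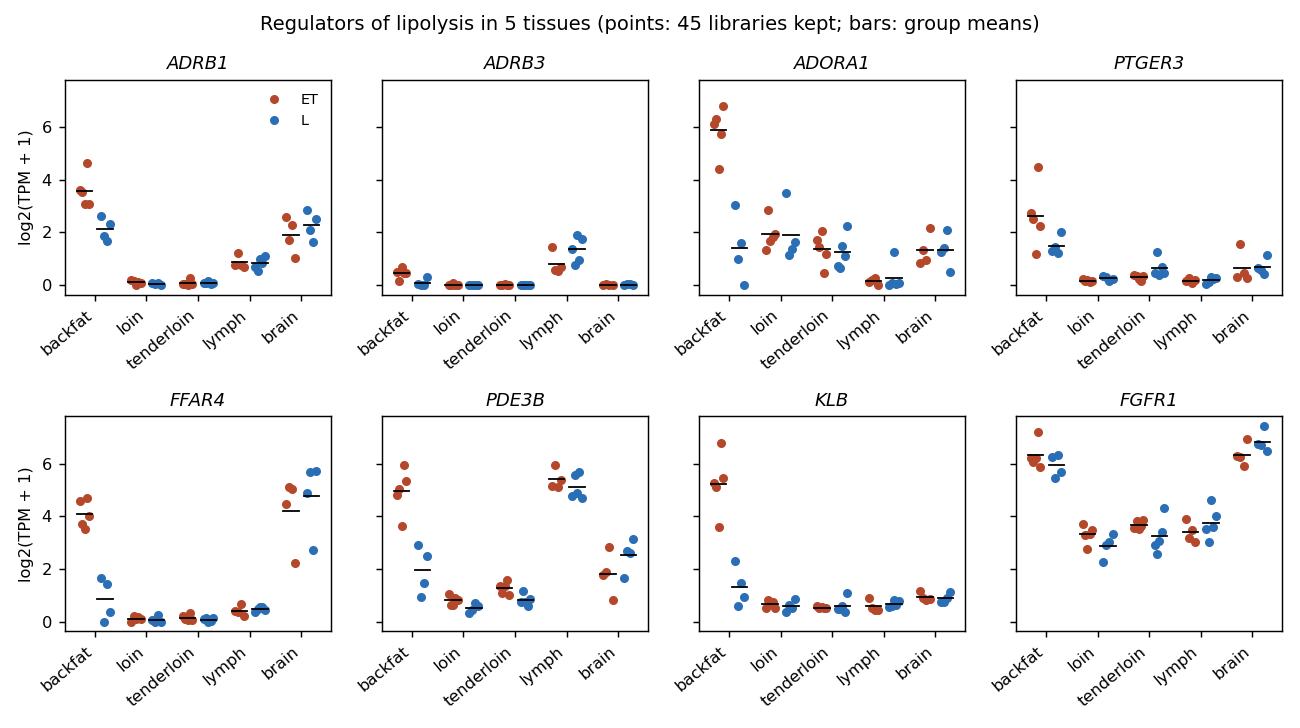
Level of each regulator as log2(TPM + 1) by tissue in the 45 libraries kept, ET in red and L in blue; points are libraries and bars are group means. FFAR4 is highest in brain and backfat of ET, PDE3B in lymph and ET backfat, ADRB3 in lymph, and FGFR1 in brain and backfat of both types.

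ADORA1 came from 2 assembled transcripts that both matched residues 1 to 312 of the receptor at 94.2% identity, and they had different tissue patterns. The one from an L heart assembly (2918 bases) carried 90.8% of the ADORA1 level in ET backfat, at 61.1, 73.4, 18.7, 50.3 and 98.5 TPM, and was at 7.23, 0.985, 1.99 and 0 TPM in L backfat. The other, from an ET backfat assembly (5514 bases, of which 17.0% matched the protein), was at 1.70 to 12.3 TPM in ET backfat and at 0 in all 4 L backfat libraries. In loin and tenderloin nearly all ADORA1 signal came from the second transcript, at means of 3.05 and 3.83 TPM in ET and L loin, while the first was at 0.0109 and 0. On Sscrofa11.1 RefSeq's ADORA1 overlaps MYBPH (chromosome 9, 113872439 to 113884544), a muscle myosin-binding protein gene, by 3461 bases. MYBPH was at 388 ± 231 TPM in ET loin and 693 ± 229 TPM in L loin, against 2.32 ± 1.18 and 5.29 ± 3.23 TPM in ET and L backfat. The sources used here do not say whether the counting used the strand of the reads, so reads of ADORA1 and MYBPH in the overlap cannot be told apart, and the muscle level of ADORA1 is uncertain. The type difference in backfat was as large with 1 transcript per gene (4.36, limma adjusted p = 0.00617).

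PDE3B came from 4 transcripts, and their shares differed between animals, including animals of 1 type. The full-length transcript of an ET lymph assembly (residues 1 to 1100 of the protein) had a mean of 26.5 TPM in ET lymph and 7.23 TPM in L lymph. The transcript of an L heart assembly, which matched the protein without its amino-terminal part, had means of 9.44 and 21.3 TPM in the same tissue. The ET-assembled transcript took 80.03%, 59.4%, 36.6% and 71.6% of PDE3B in lymph of S0242, S0276, S0309 and S0326, and 12.1%, 6.47%, 37.2%, 25.7% and 25.4% in lymph of the L type in the order above. In lymph, ET animal S0309 thus lay within the range of the L animals, and its share was also low in brain (29.7%), loin (23.0%) and tenderloin (27.7%), but 53.4% in backfat. ET animal S0235 had 10.9% in backfat, 19.5% in loin and 16.9% in tenderloin. L animal S0377 had 63.4% in backfat. In lymph the sum over transcripts differed little between types (0.28), and with the L heart transcript alone the sign turned (-1.28, limma adjusted p = 0.922), so a PDE3B comparison rests on summing the transcripts. The plot of single transcripts shows these patterns.

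**Figure D5:**
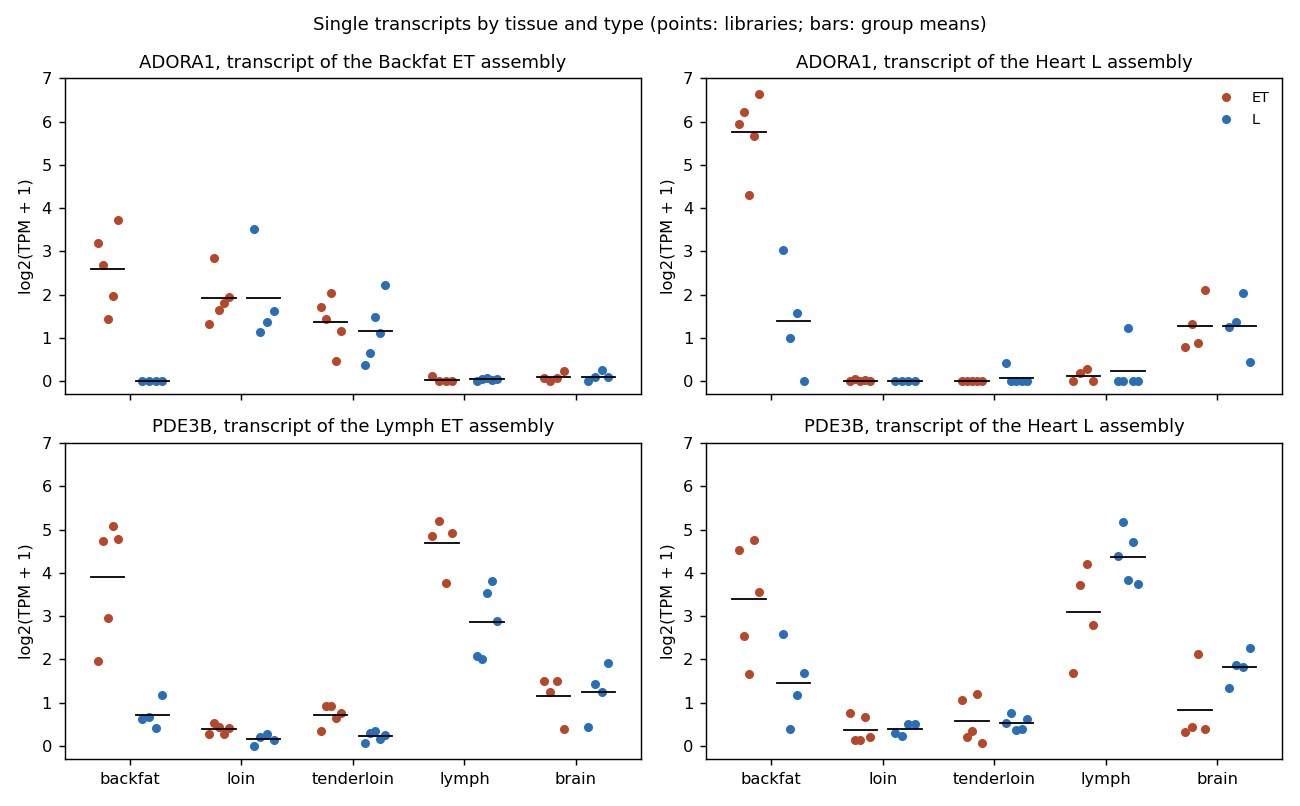
Level of the 2 ADORA1 transcripts (top) and of the 2 most abundant PDE3B transcripts (bottom) as log2(TPM + 1) by tissue and type; points are libraries and bars are group means. The ET backfat transcript of ADORA1 is seen in muscle and ET backfat. The L heart transcript is highest in ET backfat, with lower means in L backfat (2.55 TPM) and in brain of both types (1.60 TPM each). The group means of the PDE3B transcripts have opposite orders of ET and L in lymph.

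FFAR4 and FGFR1 each came from 2 transcripts. For FFAR4 the full-length transcript of an ET backfat assembly, with 7 predicted membrane helices, carried 84.4% of the level in ET backfat, and a second of a lung assembly matched residues 231 to 361. For FGFR1 the transcript of an ET loin assembly carried 81.5% of the level in ET backfat and 85.1% in L backfat. KLB, ADRB1, ADRB3 and PTGER3 had 1 transcript each.

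The genes whose log2(TPM + 1) followed each member most closely over the 45 libraries are given as a description, and since the libraries fall into tissues these values mostly reflect tissue. For ADORA1 they were RDH5 (r = 0.89), ELMD3 (0.89) and KLB itself (0.87). For KLB they were GYS2 (0.97), the liver and fat form of glycogen synthase, RDH5 (0.97) and TIKI2 (0.95). FFAR4 followed the adenylyl cyclase ADCY5 (0.96), ANKE1 and FLRT3 (0.95 each), and FGFR1 followed the monoamine oxidase AOFA (0.97), ARHGQ (0.97) and STA13 (0.96). ADRB1 went with ADAM3, GLYG2 (0.96 each) and CBPZ (0.95), and PTGER3 with KAD4, PCKGC (0.89 each) and ANR53 (0.88). PDE3B went with MYLK (0.94), SCML4 and CRLF3 (0.93 each). ADRB3 went with the B-cell gene FCRLA (0.94), TLR21 and FFAR2 (0.93 each).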

How the data were processed

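The authors deposited TPM for 57085 assembled transcripts in 50 libraries, with a protein annotation table. Per the labels' protocols, TRIzol was used to extract total RNA for stranded mRNA libraries. Trimmomatic 0.36, Salmon 1.10.0 and the build Sscrofa11.1 are named in the submitters' processing notes. Each TPM column sums to 1000000, so depth is unknown. Of 36484 transcripts with a match, 1864 with a larger E value, 2439 with repeat or retroviral matches and 23 with matches outside animals were left out. The matches used had a median identity of 92.9%.

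Two-sided tests used limma 3.58.1 (R 4.3.3), whose prior variance followed mean log2(TPM + 1), for each gene whose TPM averaged 1 or more over the fitted libraries, called at a Benjamini-Hochberg adjusted p under 0.05. The scripts were tested on simulated data. ET and L were compared within each tissue, and tissues and interactions in 1 fit of 10 groups. All differences are on the log2(TPM + 1) scale. The 8 members and the lists were chosen with earlier results of these data known, and the entry names of 2 list genes were corrected after the annotation was seen. Of the lists, 9 of 11 lipolysis, 16 of 21 receptor, 26 of 27 cyclic AMP, 10 of 10 insulin, 10 of 11 FGF21 and 9 of 10 adipocyte genes were matched. List genes are named by smallest p, up to 4 per list and direction in backfat and up to 2 in each other comparison; those of the interactions and of loin against other tissues are not named. Alternatives were all libraries, a pseudocount of 0.1, no filter, median-ratio scaling, 1 transcript per gene, an identity of at least 80%, leaving out each animal, and the animal as a block.

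ET and L are different animals, so nothing pairs them within a tissue. The same animal gave all tissues, which pairs libraries across tissues: deviations from group means correlated at a median r of 0.152 (range -0.119 to 0.611, 84 pairs) within animals and -0.018 (725 pairs) between animals. No sequences are printed.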

Additional observations from a re-analysis of the deposited data

Results flagged for a closer look

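In ET backfat, FGFR1 in S0309 (146.9 TPM) stood apart from the other 4 libraries by the gap to its nearest neighbour. This was 1 of 38 groups of libraries examined, and chance alone marks about 1 group in 20 (5% by the 95% critical value). The same library was the highest of the ET group for ADRB1, FFAR4, PDE3B, KLB and PTGER3 and had the highest ADIPOQ.

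The difference between ET and L was larger in backfat than in another tissue for 6 genes, by limma's interaction test, beside 24.3% of all genes against loin, 10.4% against tenderloin, 14.4% against lymph and 18.0% against brain. KLB and PTGER3 entered this fit through backfat alone, and the PTGER3 calls were lost against loin and tenderloin under several settings. FFAR4 and ADRB1 averaged under 1 TPM in loin, tenderloin and lymph, PDE3B in loin and ADORA1 in lymph. Values against those tissues largely repeat the backfat difference. Against loin the excess was 4.48 for ADORA1, 3.85 for KLB, 3.20 for FFAR4, 2.72 for PDE3B, 1.40 for ADRB1 and 1.23 for PTGER3 (log2). Against tenderloin it was 4.36, 3.99, 3.16, 2.54, 1.46 and 1.496 in the same order. Against lymph it was 4.62 for ADORA1, 4.01 for KLB, 3.31 for FFAR4, 2.72 for PDE3B and 1.43 for ADRB1, and against brain 4.49, 3.86, 3.78, 3.71 and 1.84.

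Some members were high in libraries that entered no comparison. The brain libraries of S0235 and S0355, with myelin genes at 37706 and 53542 TPM, had ADORA1 at 50.7 and 65.8 TPM, against at most 3.50 in the 8 brain libraries kept. The loin library of L animal S0355, with adipocyte markers at 12839 TPM and muscle markers at 29.4 TPM, had FFAR4 at 7.99, KLB at 6.77, FGFR1 at 64.7, ADRB1 at 13.3, PDE3B at 14.2 and PTGER3 at 1.21 TPM. Set beside backfat, its FFAR4 and KLB lay above all 4 L libraries and below all 5 ET libraries, and its PDE3B and ADRB1 lay within the ET range. The lymph library of S0235, with the kidney gene UMOD (entry UROM) at 2156 TPM and the T-cell gene CD3E at 3.13 TPM against at least 406 TPM in the lymph libraries kept, had KLB at 2.19 and PTGER3 at 7.08 TPM, against at most 0.868 and 0.23 TPM in the other lymph libraries.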

How the results depend on the processing

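Counts of members called stayed within 1.5 times under all alternatives run except in loin with median-ratio scaling (1 in place of 0) and in the interaction with tenderloin with all libraries (3 in place of 6). Of 1370 values of single members under another setting, 1296 kept their direction and their side of the threshold, 31 lost a call, 11 gained one and 32 changed sign; the cause was not tested. Sign changes with all libraries were KLB relative to adipocyte markers (-0.0272), ADORA1 (-0.32) and FGFR1 (-0.19) in loin, ADORA1 in brain (-0.0729), and FGFR1 in the interactions with loin (1.13) and tenderloin (0.52). Relative to adipocyte markers FFAR4 became 1.25 with a pseudocount of 0.1 and 0.0399 against ADIPOQ alone. With 1 transcript per gene PDE3B in lymph became -1.28, and with median-ratio scaling FGFR1 in backfat against brain became 0.28. With the replicate block, which pairs libraries of the same animal across tissues, FGFR1 in the interaction with tenderloin became 0.14, and no call of a member changed. Leaving out 1 animal at a time, ADORA1 ranged from -0.25 to 0.54 in loin, -0.0426 to 0.38 in tenderloin and -0.28 to 0.26 in brain, FFAR4 in brain from -1.22 to 0.12, and the FGFR1 interactions from -0.28 to 0.25 with loin and -0.38 to 0.15 with tenderloin. PTGER3 has no value with an identity of at least 80%, since its match lies below that. In backfat ADORA1, KLB, FFAR4 and PDE3B passed without each animal in turn, and ADRB1 did not. With 4 or 5 animals per group and no depth, small differences in low genes such as ADRB3 would not be seen.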

Other observations

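The steps downstream of the receptors marked backfat as fat tissue. All 9 genes tested of the lipolysis machinery were higher in backfat than in loin, tenderloin, lymph and brain, with PLIN1 6.99, 6.85, 6.25 and 6.25 higher and FABP4 7.80 higher than in loin (log2, limma), although with median-ratio scaling PNPLA2 did not pass against loin nor PNPLA2 and ABHD5 against tenderloin. Among other receptors of fat cells HCAR1, the lactate receptor, which also restrains lipolysis, was higher in backfat than in loin (3.78), tenderloin (3.83), lymph (3.82) and brain (3.31). The adenosine receptor ADORA2B, which raises cyclic AMP, was higher in backfat than in loin (2.06) and tenderloin (2.03). Against lymph, GHR was higher (4.39) and PTGER2 (-2.88) and FFAR2 (-2.03) were lower, and against brain the alpha receptor ADRA2C was higher (2.54) and ADRA2B (-1.32) and the natriuretic peptide clearance receptor NPR3 (-1.30) were lower.

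The cyclic AMP genes divided by tissue. Against loin and tenderloin the regulatory subunit PRKAR2B (4.66 and 4.21) and the inhibitory G protein subunit GNAI2 (3.09 and 2.91) were higher in backfat and the phosphodiesterase PDE4C (-4.14 and -4.26) was lower, with PRKAR2A (-2.88) lower than in loin and ADCY2 (-3.56) lower than in tenderloin. Against lymph the cyclase ADCY7 (-3.53) and the catalytic subunit PRKACB (-2.92) were lower and GNAI1 (2.46) and ADCY9 (1.30) higher. Against brain 17 of 25 genes were lower in backfat (11 with median-ratio scaling), among them PRKACB (-2.61) and PRKAR1A (-2.15), where 63.1% of all genes were lower, and ADCY4 (3.15) and PDE3A (1.25) were higher. Of the insulin arm ABHD15 (2.66 and 2.53) and AKT1 (1.78 and 1.96) were higher than in loin and tenderloin, IRS2 (2.49) and AKT2 (1.76) higher than in lymph, and AKT2 (1.48) and AKT1 (0.96) higher than in brain. Within the FGF21 arm FGFR2 was higher in backfat than in loin (2.91), tenderloin (2.90) and lymph (2.34) and lower than in brain (-2.16).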
